A study of Homo sapiens with 6 samples.

Results

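The human mitochondrial genome is a small circle that the mitochondrion transcribes itself, and its transcripts were followed in HEK293 cells with and without a targeted MUL1 gene. The members are all genes that the count files place on chromosome MT, 37 of 58021 genes, covered by 41 of 597973 exon bins. They comprise 13 protein-coding genes, 2 rRNAs and 22 tRNAs, of which 28 are listed on the plus strand and 9 on the minus strand. RNA was sequenced from 3 libraries labelled WT and 3 labelled MUL1(−/−), all from HEK293, a human embryonic kidney line, grown in high-glucose medium with fetal calf serum and given no treatment. MUL1 is an E3 ubiquitin ligase of the mitochondrial outer membrane, and the study inactivated its gene with CRISPR-Cas9. The number of clones behind the libraries is not stated, nor whether the 3 libraries of a genotype came from separate cultures, so p-values measure only the spread between these libraries.

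Transcription of the mitochondrial genome runs around the circle in both directions and yields long precursors that carry many genes each. Transcription of the heavy strand makes both rRNAs, most mRNAs and most tRNAs, here the 28 genes on the plus strand of the files. Transcription of the light strand makes MT-ND6 and 8 tRNAs, here the 9 genes on the minus strand. Because tRNAs lie between most of the other genes, cutting them out at both ends also releases the mRNAs and rRNAs. The mRNAs encode subunits of complexes I, III, IV and V of the respiratory chain, and the rRNAs and tRNAs serve the mitochondrial ribosome that translates them.

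Some neighbours are not separated by a tRNA but share bases, and the counts of these genes share reads. They are shown because 3 names in the files join 7 of the 37 genes, so that the changes of such neighbours are not independent of each other. The sequences are from GENCODE 29 transcripts on GRCh38, 5′ to 3′ on the strand of the gene, with the bases common to both genes in capitals. They lie at 8517 to 8582, 9193 to 9221 and 10750 to 10776 on the plus strand and at 5812 to 5840 on the minus strand of chromosome MT.

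MT-ATP8 and MT-ATP6: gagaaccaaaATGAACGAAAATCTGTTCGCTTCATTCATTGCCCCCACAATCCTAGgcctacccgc
MT-ATP6 and MT-CO3: cacgacaacacataAtgacccaccaatca
MT-ND4L and MT-ND4: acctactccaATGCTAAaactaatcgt
MT-TC and MT-TY: ggcctctttttaccAgctccgaggtgatt

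The tRNA genes with the 4 lowest log2 fold changes among those named by rule follow, with the tRNA in capitals and up to 15 neighbouring bases in lower case. MT-TF lies at 577 to 647 and MT-TT at 15888 to 15953 on the plus strand. MT-TA lies at 5587 to 5655 and MT-TN at 5657 to 5729 on the minus strand.

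MT-TF: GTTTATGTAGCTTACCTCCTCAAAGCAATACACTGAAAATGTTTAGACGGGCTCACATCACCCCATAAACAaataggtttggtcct
MT-TT: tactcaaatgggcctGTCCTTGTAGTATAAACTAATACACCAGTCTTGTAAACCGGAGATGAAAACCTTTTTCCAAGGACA
MT-TA: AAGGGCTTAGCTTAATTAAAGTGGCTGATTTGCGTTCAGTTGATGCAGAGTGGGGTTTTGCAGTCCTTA
MT-TN: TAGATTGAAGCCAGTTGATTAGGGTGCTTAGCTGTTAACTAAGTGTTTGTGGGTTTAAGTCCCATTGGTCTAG

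Values are raw read counts per exon bin, summed per gene and given as CPM, the usual scaling of a library's summed gene counts to a common total, after TMM factors. The bin counts of a whole library summed to 132849479 to 149317215 in WT and to 127466071 to 128125459 in the libraries labelled MUL1(−/−). A member held 218 to 644153 counts in a library, and all 37 passed the filter on low counts. MUL1 itself (ENSG00000090432) was at 14.1, 13.9 and 17.4 CPM in the WT libraries and at 17.1, 15.2 and 17.5 CPM in those labelled MUL1(−/−), a log2 fold change of 0.13 ± 0.10 (SE, edgeR) at an adjusted p of 0.325. The genotypes overlapped, and since a CRISPR edit need not lower the RNA, this count does not check the labels. All 5 HEK293 markers were detected in each library (PAX2, VIM, KRT8, KRT18 and NEFM), of which 3 were lower and 1 higher in the libraries labelled MUL1(−/−). The 4 markers of other cell types (PTPRC, PECAM1, ALB and DCN) summed to 1.32 to 1.41 CPM in WT and to 3.17 to 3.84 CPM in the libraries labelled MUL1(−/−), with 3 of the 4 called higher and none at 0 in all libraries. Their part in the mitochondrial values was not tested.

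Mitochondrial transcripts, taken as a sum, lay lower in each library labelled MUL1(−/−) than in any WT library. All 37 genes together held 21136, 21157 and 22882 CPM in the WT libraries and 18715, 19196 and 18901 CPM in those labelled MUL1(−/−). The log2 difference was -0.20 (SE 0.04). The exact two-sided permutation test gave p = 0.1, which is the smallest value that 3 libraries against 3 can give, so no sum of this kind can pass a threshold of 0.05. The difference was negative, from -0.22 to -0.13, in every alternative applied to this sum, which did not include all 15. The TMM factors were 0.947 to 0.992 in WT and 1.02 to 1.03 in libraries labelled MUL1(−/−), so this scaling enters the difference. As a share of all bin counts, mitochondrial bins took 2.22% ± 0.143 in WT and 2.03% ± 0.0225 in libraries labelled MUL1(−/−) (SD, n = 3 each). With each gene represented by its most counted bin, a choice that removes the weight that genes of many bins otherwise have, the shares were 10.6% ± 0.583 and 9.77% ± 0.0844. The study describes its sequencing as profiling of mRNA, and how such libraries captured rRNAs and tRNAs is not given. Counts of these classes, and ratios between classes, therefore need not follow RNA amounts. CPM is also relative to all counted RNA, that of nuclear genes included. In RNA from a whole culture, fewer mitochondrial genomes per cell, less RNA per genome, more RNA of nuclear genes and a difference in capture cannot be told apart.

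Gene by gene, 20 of the 37 members (54.1%) fell and 0 rose at an adjusted p under 0.05 with edgeR's quasi-likelihood test over all 26106 genes tested. Over all those genes 19.0% were called lower and 18.9% higher, 37.9% in all, and 23 of the 37 members had an unadjusted p under 0.05. In no alternative, DESeq2 among them, was a member called higher. For 22 members (59.5%) every library labelled MUL1(−/−) lay below every WT library, against 24.6% of all tested genes. None of the 37 lay higher without overlap, as 24.3% of all tested genes did. The log2 fold change was negative for 35 of the 37, with a median of -0.27 against -0.01 over all genes tested. The decreases were small. None of the 37 passed an absolute log2 fold change of 1, the size the study required, while 3.82% of all genes did so in the lower and 4.12% in the higher direction. Of the 20 calls, 14 held in all 15 alternatives, 7 in coding genes and 7 in tRNAs.

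**Figure D1:**
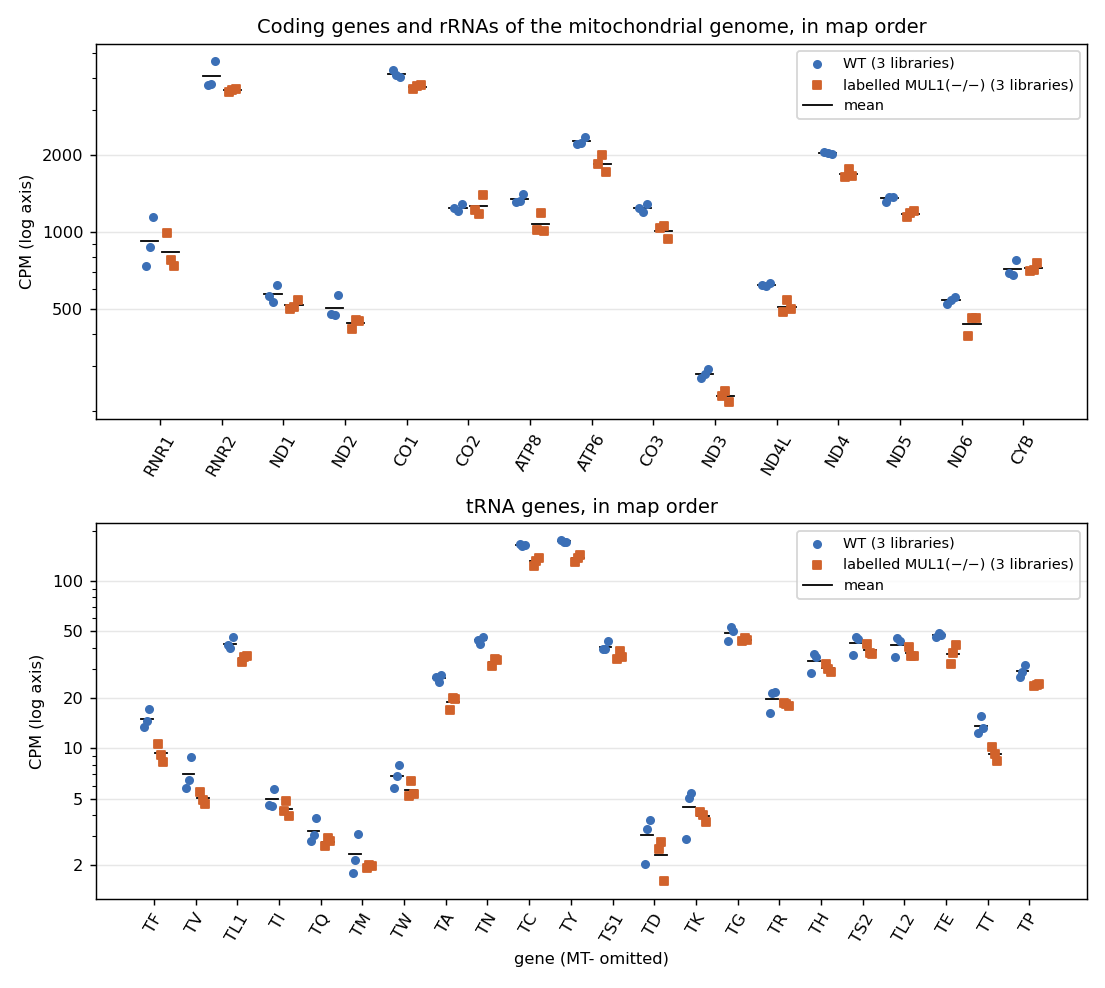
CPM of each coding gene and rRNA (upper panel) and of each tRNA gene (lower panel) on a logarithmic axis, in the order of the genome map, with a point for each of the 3 WT (circles) and 3 MUL1(−/−) (squares) libraries and a bar at their mean. Levels run from 2.35 CPM to 173 CPM for WT means of the tRNAs, and the squares lie below the circles for most genes, with MT-CO2 and MT-CYB as the coding genes whose means are level.

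Of the 13 coding genes, 10 fell, and the coding genes together were at 15988 ± 287 CPM in WT and 13905 ± 313 CPM in libraries labelled MUL1(−/−) (SD, n = 3 each). Their log2 difference was -0.20 (SE 0.02, exact permutation p = 0.1) and the genotypes did not overlap. The called coding genes lost between 10.8% and 20.4% of their WT level. The 3 that did not pass were MT-ND1, MT-CO2 and MT-CYB.

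Complex I, the NADH dehydrogenase that feeds electrons into the chain, takes 7 of its subunits from this genome, and 6 of the 7 genes fell. Summed, they were at 5610, 5660 and 5853 CPM in WT and at 4646, 4973 and 4866 CPM in libraries labelled MUL1(−/−), a log2 difference of -0.24 (SE 0.03, exact permutation p = 0.1). No library of either genotype reached into the range of the other. MT-ND4 (ENSG00000198886; 10760 to 12137) was at 2055, 2046 and 2017 CPM in WT and at 1637, 1765 and 1655 CPM in libraries labelled MUL1(−/−). It fell with a log2 fold change of -0.27 ± 0.06 (SE, edgeR) at an adjusted p of 0.00179. MT-ND4L (10470 to 10766), whose last 7 bases are the first of MT-ND4, fell by 0.29 on the log2 scale (SE 0.06, adjusted p = 0.00179, edgeR) from 623 ± 8.20 to 508 ± 27.9 CPM. The ratio of the count in the bin of the shared 7 bases to that in the bin of the other 290 bases of MT-ND4L was 50.3% ± 0.483 in WT and 48.5% ± 1.27 in libraries labelled MUL1(−/−).

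MT-ND3 (10059 to 10404) was at 269, 277 and 292 CPM in WT and at 229, 238 and 216 CPM in libraries labelled MUL1(−/−), a log2 fold change of -0.30 ± 0.07 (SE, edgeR) at an adjusted p of 0.00238. MT-ND5 (12337 to 14148), the longest gene of the set, fell from 1354 ± 38.7 to 1181 ± 33.8 CPM (log2 fold change -0.20, SE 0.06, adjusted p = 0.0158, edgeR). MT-ND5 lost its call in 4 of the 15 alternatives. MT-ND2 (4470 to 5511) was at 477, 475 and 566 CPM in WT and at 416, 452 and 447 CPM in libraries labelled MUL1(−/−). The log2 fold change was -0.21 ± 0.08 (SE, edgeR) at an adjusted p of 0.0430 and its call held in 7 of the 15 alternatives. MT-ND1 (3307 to 4262) did not pass, at 573 ± 45.9 and 517 ± 23.6 CPM (log2 fold change -0.15, SE 0.07, adjusted p = 0.111, edgeR).

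MT-ND6 (ENSG00000198695; 14149 to 14673), the complex I subunit made from the light strand, was at 525, 542 and 557 CPM in WT. It was at 392, 459 and 459 CPM in libraries labelled MUL1(−/−), all below the WT libraries, and it fell by 0.31 on the log2 scale (SE 0.07, adjusted p = 0.00318, edgeR). Relative to the other 12 coding genes it was at 3.50% ± 0.0827 in WT and 3.24% ± 0.236 in libraries labelled MUL1(−/−), and there the genotypes overlapped (exact permutation p = 0.2).

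Complex IV, cytochrome c oxidase, which passes electrons to oxygen, takes its 3 core subunits from this genome, and 2 of the 3 mRNAs fell. MT-CO1 (ENSG00000198804; 5904 to 7445), the catalytic subunit, was at 4297, 4118 and 4057 CPM in WT and at 3645, 3716 and 3761 CPM in libraries labelled MUL1(−/−). The genotypes did not overlap, and the log2 fold change was -0.17 ± 0.06 (SE, edgeR) at an adjusted p of 0.0311, a call that held in 8 of the 15 alternatives. MT-CO3 (9207 to 9990) was at 1246, 1202 and 1282 CPM in WT and at 1037, 1060 and 942 CPM in libraries labelled MUL1(−/−), a log2 fold change of -0.30 ± 0.06 (SE, edgeR) at an adjusted p of 0.00205. MT-CO2 (ENSG00000198712; 7586 to 8269), which takes electrons from cytochrome c, was at 1237, 1210 and 1289 CPM in WT and at 1218, 1180 and 1400 CPM in libraries labelled MUL1(−/−). The genotypes overlapped, and the log2 fold change was 0.02 ± 0.07 (SE, edgeR) at an adjusted p of 0.826. Its sign turned without WT replicate 2 or without MUL1(−/−) replicate 3.

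Complex V, the ATP synthase, takes subunits ATP8 and ATP6 from a shared mRNA, and both genes fell. MT-ATP8 (ENSG00000228253; 8366 to 8572) was at 1306, 1321 and 1408 CPM in WT and at 1018, 1190 and 1006 CPM in libraries labelled MUL1(−/−). It had the lowest log2 fold change of the coding genes, -0.33 (SE 0.07, adjusted p = 0.00225, edgeR). MT-ATP6 (8527 to 9207) went from 2273 ± 79.8 to 1852 ± 143 CPM, a log2 fold change of -0.30 ± 0.07 (SE, edgeR) at an adjusted p of 0.00275. The genes share the 46 bases shown above, and the count of that bin enters both. It stood at 98.6% ± 0.649 of the count in the separate bin of the other 161 bases of MT-ATP8 in WT and at 98.0% ± 0.939 in libraries labelled MUL1(−/−), so these are not 2 separate measurements.

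Complex III has a single mitochondrial subunit, cytochrome b, encoded by MT-CYB (ENSG00000198727; 14747 to 15887). It was at 688, 676 and 777 CPM in WT and at 704, 711 and 755 CPM in libraries labelled MUL1(−/−). The WT libraries enclosed the others, and the log2 fold change was 0.02 ± 0.07 (SE, edgeR) at an adjusted p of 0.861, with a sign that turned when WT replicate 1, WT replicate 2 or MUL1(−/−) replicate 3 was left out.

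MT-CO2 and MT-CYB, singled out after their values were seen, held a larger share of the mitochondrial counts in each library labelled MUL1(−/−) than in any WT library. MT-CO2 held 5.85%, 5.72% and 5.63% of all mitochondrial counts in WT and 6.51%, 6.14% and 7.41% in libraries labelled MUL1(−/−). MT-CYB held 3.26%, 3.20% and 3.40% against 3.76%, 3.70% and 3.995%. In both the genotypes did not overlap (exact permutation p = 0.1 each), and a share of this kind is free of the scaling between libraries but shows only that genes changed unequally. Shares were compared for all 37 members. No other member had a higher share in every library labelled MUL1(−/−), while 8 had a lower share and 27 overlapped. The exact permutation p of 0.1 is the smallest possible here and was not adjusted for the 37 comparisons. By complex, complex IV against complex I stood at 116% ± 3.93 in WT and 124% ± 3.80 in libraries labelled MUL1(−/−), with overlap (exact permutation p = 0.2).

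The rRNAs, MT-RNR1 of the small and MT-RNR2 of the large ribosomal subunit, did not pass the test with all 6 libraries. MT-RNR2 (ENSG00000210082; 1671 to 3229) was at 3778, 3803 and 4670 CPM in WT and at 3548, 3600 and 3639 CPM in libraries labelled MUL1(−/−), a log2 fold change of -0.18 ± 0.08 (SE, edgeR) at an adjusted p of 0.0727. The WT libraries lay above the others, with WT replicate 3 well above the rest. Without WT replicate 3 the log2 fold change was -0.08 (adjusted p = 0.301, edgeR), while it was -0.24 both without WT replicate 1 (adjusted p = 0.0322, edgeR) and without WT replicate 2 (adjusted p = 0.0479, edgeR), where it passed. MT-RNR1 (ENSG00000211459; 648 to 1601) was at 737, 873 and 1147 CPM in WT and at 994, 778 and 738 CPM in libraries labelled MUL1(−/−). The WT range enclosed the other, the log2 fold change was -0.14 ± 0.13 (SE, edgeR) at an adjusted p of 0.463, and without WT replicate 3 it was 0.05. Against the coding genes, the rRNAs were at 31.2% ± 3.90 in WT and 31.9% ± 1.37 in libraries labelled MUL1(−/−) (log2 difference 0.04, SE 0.11, exact permutation p = 0.8).

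The tRNA genes gave 10 decreases among 22, and the log2 fold change of all 22 was negative. Their sum was at 696, 743 and 764 CPM in WT and at 587, 606 and 607 CPM in libraries labelled MUL1(−/−), without overlap (log2 difference -0.29, SE 0.04, exact permutation p = 0.1). Heavy-strand tRNAs alone summed to 250, 301 and 308 CPM against 254, 245 and 237 CPM, with overlap (log2 difference -0.22, SE 0.10, exact permutation p = 0.2). Light-strand tRNAs summed to 446, 441 and 456 CPM against 332, 361 and 370 CPM, without overlap (log2 difference -0.34, SE 0.05, exact permutation p = 0.1). MT-TY and MT-TC, which share reads, enter the light-strand sum. Relative to the coding genes, tRNA counts were at 4.37%, 4.72% and 4.69% in WT and at 4.32%, 4.26% and 4.36% in libraries labelled MUL1(−/−). The latter were all lower, by a log2 difference of -0.09 (SE 0.04, exact permutation p = 0.1), although WT replicate 1 and MUL1(−/−) replicate 3 nearly met. This ratio was not computed by strand. A read is counted in every bin it touches, so the count of a tRNA gene includes reads that reach into it from a neighbouring gene, and it cannot be read as the amount of mature tRNA.

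MT-TF (ENSG00000210049), the phenylalanine tRNA and the first gene transcribed from the heavy strand, changed most of the 37. It was at 13.5, 14.6 and 17.1 CPM in WT and at 10.6, 9.09 and 8.27 CPM in libraries labelled MUL1(−/−), a log2 fold change of -0.69 ± 0.11 (SE, edgeR) at an adjusted p of 2.39e-04. The highest library labelled MUL1(−/−) was below the lowest WT library. MT-TT (ENSG00000210195), the threonine tRNA at the other end of the heavy-strand genes, was at 12.3, 15.6 and 13.2 CPM against 10.2, 9.26 and 8.45 CPM. It fell by 0.56 on the log2 scale (SE 0.11, adjusted p = 8.15e-04, edgeR), again with no overlap. Between these ends, MT-TL1 (3230 to 3304), a leucine tRNA directly after MT-RNR2, fell from 42.3 ± 3.35 to 34.7 ± 1.48 CPM (log2 fold change -0.29, SE 0.08, adjusted p = 0.00877, edgeR). MT-TV, the valine tRNA between the rRNAs, also fell (log2 fold change -0.49, adjusted p = 0.0151, edgeR) and is named after its value was seen, as the fourth and last heavy-strand tRNA called. It did not pass without WT replicate 3 (-0.29, adjusted p = 0.0692, edgeR) or without MUL1(−/−) replicate 2 (-0.45, adjusted p = 0.0554, edgeR), and MT-TL1 did not pass without MUL1(−/−) replicate 1 (-0.24, adjusted p = 0.0579, edgeR). MT-TG (9991 to 10058), the glycine tRNA, named by rule for its CPM, did not pass, at 49.2 ± 4.54 and 44.7 ± 0.718 CPM (log2 fold change -0.14, adjusted p = 0.178, edgeR).

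On the light strand, 6 of 8 tRNAs fell, compared with 4 of 14 on the heavy strand, beside 19.0% called lower among all tested genes. The median log2 fold changes of these tRNAs were -0.33 on the light and -0.23 on the heavy strand. Calls also depend on the SE, which reached 0.22 among heavy-strand tRNAs, for MT-TD. The difference between the strands was not itself tested. MT-TA (ENSG00000210127), the alanine tRNA, was at 26.7, 24.8 and 27.4 CPM in WT and at 17.1, 19.9 and 19.8 CPM in libraries labelled MUL1(−/−). It fell by 0.47 on the log2 scale (SE 0.08, adjusted p = 4.69e-04, edgeR). MT-TN (ENSG00000210135), the asparagine tRNA next to it, was at 44.5, 42.3 and 46.1 CPM against 30.9, 34.5 and 33.7 CPM, a log2 fold change of -0.43 ± 0.07 (SE, edgeR) at an adjusted p of 3.77e-04. In both genes the genotypes lay well apart.

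MT-TY (5826 to 5891) and MT-TC (5761 to 5826), the tyrosine and cysteine tRNAs of the same cluster, had the highest counts of the tRNAs, also per kilobase, and share 1 base. MT-TY was at 175, 172 and 172 CPM in WT and at 129, 138 and 143 CPM in libraries labelled MUL1(−/−) (log2 fold change -0.34, SE 0.06, adjusted p = 6.85e-04, edgeR). MT-TC was at 166, 163 and 165 CPM against 124, 132 and 138 CPM (log2 fold change -0.33, SE 0.07, adjusted p = 0.00106, edgeR). The count at the shared base, 5826, enters both genes. Its ratio to the count in the bin of the other 65 bases of MT-TC was 96.9% ± 0.327 in WT and 97.0% ± 0.265 in libraries labelled MUL1(−/−), so the values of these tRNAs are not independent. MT-TE (14674 to 14742), the glutamate tRNA beside MT-ND6, fell from 47.6 ± 1.17 to 36.9 ± 4.72 CPM (log2 fold change -0.37, SE 0.09, adjusted p = 0.00403, edgeR). The other light-strand tRNA called was MT-TP (log2 fold change -0.27, adjusted p = 0.0140, edgeR), and MT-TS1 and MT-TQ did not pass. MT-TP lost its call in 3 of the 15 alternatives, library totals and the omission of MUL1(−/−) replicate 1 or 2, with adjusted p up to 0.0676 (edgeR). These 3 are named after their values were seen. The 12 tRNAs that were not called, on both strands, had log2 fold changes from -0.40 to -0.11.

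By strand, light-strand genes summed to 971, 983 and 1013 CPM in WT and to 725, 821 and 829 CPM in libraries labelled MUL1(−/−), a log2 difference of -0.32 (SE 0.07, exact permutation p = 0.1). Heavy-strand genes summed to 20166, 20174 and 21869 CPM against 17991, 18375 and 18072 CPM, a log2 difference of -0.19 (SE 0.04, exact permutation p = 0.1). Neither sum overlapped between the genotypes. The light-strand genes took 4.56% ± 0.114 of all mitochondrial counts in WT and 4.18% ± 0.271 in libraries labelled MUL1(−/−), and these shares did not overlap (exact permutation p = 0.1). However, WT replicate 3 (4.43%) and MUL1(−/−) replicate 3 (4.39%) nearly met, and MUL1(−/−) replicate 1 (3.87%) lay lowest. The counting did not use strand. In 11 cases a plus-strand and a minus-strand bin span identical bases with at least 100 counts, and the lower count divided by the higher had a median of 1.0. RNA of the light strand and antisense RNA of the heavy strand at the same bases therefore cannot be told apart.

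Along the heavy strand, the log2 fold changes can be read in the order of transcription. The 6 consecutive coding genes MT-ATP8, MT-ATP6, MT-CO3, MT-ND3, MT-ND4L and MT-ND4 lay close together, between -0.33 and -0.27. The coding genes just before and just after this run, MT-CO2 and MT-ND5, were at 0.02 and -0.20. The tRNAs MT-TG and MT-TR, which lie within the run, were at -0.14 and -0.11. The tRNAs at both ends, MT-TF and MT-TT, lay lowest. Spearman's rho between order and log2 fold change was 0.19 over the 28 heavy-strand genes, -0.27 over its 14 coding genes and rRNAs and 0.52 over its 14 tRNAs, and it was -0.23 over the 9 light-strand genes. These are descriptions over genes that share libraries and precursor transcripts. Among the 22 tRNAs, rho between the WT level and the log2 fold change was 0.08.

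Genes of a shared precursor did not stand at equal levels. Per kilobase of the longest bin, the WT libraries held 2696 ± 81.0 CPM for MT-CO1, 2619 ± 326 for MT-RNR2, 2485 ± 83.0 for MT-ATP6, 1821 ± 58.3 for MT-CO2 and 1550 ± 51.4 for MT-CO3. MT-ATP8 stood at 4206 ± 175 CPM per kilobase, over a bin of 161 bases in which reads of its neighbours weigh most. Complex I genes were lower on this scale, from 1429 ± 21.5 for MT-ND4L, 1335 ± 15.8 for MT-ND4, 1031 ± 30.3 for MT-ND6, 807 ± 33.4 for MT-ND3 and 747 ± 21.4 for MT-ND5 to 599 ± 48.0 for MT-ND1 and 486 ± 49.8 for MT-ND2. MT-CYB stood at 626 ± 48.4 and MT-RNR1 at 964 ± 218 CPM per kilobase. Among the coding genes the highest level, that of MT-ATP8 over its short bin, was 8.66 times the lowest, that of MT-ND2. The next highest was MT-CO1. MT-CYB and MT-ND1 differed by less than their SD, as did MT-RNR2 and MT-CO1. MT-RNR2 differed from MT-ATP6, and MT-RNR1 from MT-ND6 and MT-ND3, by less than the SD of the rRNA but by more than that of the coding gene. The tRNAs ran from 34.6 CPM per kilobase for MT-TM to 1416 for MT-TY. Reads of neighbours also weigh in the short bins of the tRNAs and of MT-ND4L (290 bases), so their levels per kilobase are not on a par with those of long genes.

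Where neighbours join without a tRNA, the shared bases have a bin of their own, which counts every read that touches them, whether it crosses the join or ends there. At position 9207, the 1 base common to MT-ATP6 and MT-CO3, there were 4035, 4734 and 4155 counts in WT and 3282, 3453 and 3741 in libraries labelled MUL1(−/−). The ratio to the count in the bin of the rest of MT-CO3 was 2.47% ± 0.128 in WT and 2.59% ± 0.365 in libraries labelled MUL1(−/−), with overlap (exact permutation p = 0.8). Over the 7 bases common to MT-ND4L and MT-ND4, the ratio to the count in the bin of the rest of MT-ND4 was 11.4% ± 0.247 and 10.9% ± 0.384 (exact permutation p = 0.3). Against MT-ND4L, as given above, the ratio was lower in every library labelled MUL1(−/−) (exact permutation p = 0.1). These bins were compared after their counts had been seen.

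The nucleus holds many old copies of mitochondrial genes, which can take or give reads. Of all 100-base windows of a gene, 27.9% for MT-CO1 were also found in annotated nuclear transcripts, 26.1% for MT-ND2, 11.9% for MT-ATP6, 10.97% for MT-ND1, 4.38% for MT-CO3 and 2.39% for MT-CO2. For the other coding genes and the rRNAs there were 0 such windows. Only windows identical in every base were counted, so copies that differ in sequence or are not annotated were not covered. The part of reads exchanged with nuclear copies in the values above was not tested. All 412 annotated copies together held 173 to 179 CPM in WT and 139 to 166 CPM in libraries labelled MUL1(−/−), and 34 of them passed the filter on low counts. Of these 34, 0 were higher and 2 lower, beside 18.9% and 19.0% of all tested genes. The 2 were MTATP8P1 (-0.55, adjusted p = 0.0283, edgeR) and MTND2P2, the latter named after its value was seen. MTND2P2 was at 0.153 CPM in WT and 0.0752 CPM in libraries labelled MUL1(−/−), with at most 26 counts in a library. Its call held in 4 of 13 alternatives. With a filter of at least 1 CPM in 3 libraries, 5 copies remained, so most of the 34 had low counts. MTATP6P1, the most counted copy, was at 142 ± 3.31 and 125 ± 15.6 CPM (log2 fold change -0.18, adjusted p = 0.0983, edgeR). MTCO1P12, MTND2P28 and MTND4P12 were at 12.4 ± 0.789, 6.99 ± 0.621 and 1.496 ± 0.0737 CPM in WT and at 11.96 ± 1.13, 6.53 ± 0.279 and 1.46 ± 0.0556 CPM in libraries labelled MUL1(−/−), and none of them passed.

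Nuclear genes that transcribe, cut, stabilise and modify mitochondrial RNA, or that keep the mitochondrial DNA, changed in both directions. Of 60 such genes, all tested, 15 (25%) rose and 14 (23.3%) fell, beside 18.9% and 19.0% of all genes. Scaled by library totals alone, 20 rose and 10 fell. The median log2 fold change was 0.01, the range was -0.83 to 0.91, and none passed an absolute value of 1.

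In transcription, POLRMT, the RNA polymerase of the mitochondrion, was at 138, 125 and 116 CPM in WT and at 94.2, 88.7 and 98.1 CPM in libraries labelled MUL1(−/−). The genotypes did not overlap and it fell by 0.43 on the log2 scale (SE 0.08, adjusted p = 4.16e-04, edgeR). TFAM, which packages the DNA and opens the promoters, was at 87.3 ± 9.03 and 83.7 ± 6.36 CPM (log2 fold change -0.06, adjusted p = 0.614, edgeR). TEFM, the elongation factor, was at 8.30, 8.72 and 9.76 CPM against 14.1, 14.4 and 14.8 CPM and rose by 0.69 (SE 0.09, adjusted p = 3.60e-05, edgeR). The initiation factor TFB2M rose by 0.30 (adjusted p = 0.0422) and MTERF3 by 0.27 (adjusted p = 0.0416), while the rRNA methyltransferase TFB1M fell by 0.28 (adjusted p = 0.0464), each on the log2 scale with edgeR and each lost in at least 5 of 15 alternatives.

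In processing, genes of the enzymes that cut the ends of tRNAs changed in both directions. HSD17B10, a subunit of the RNase P that cuts the 5′ end, was at 236, 221 and 253 CPM in WT and at 138, 130 and 132 CPM in libraries labelled MUL1(−/−). It had the lowest log2 fold change of the 60 (-0.83, SE 0.07, adjusted p = 4.86e-07, edgeR). PRORP, the nuclease subunit of the same enzyme, fell by 0.19 on the log2 scale (adjusted p = 0.0477, edgeR), a call that held in 4 of 15 alternatives. TRMT10C, the third subunit, went from 19.6 ± 2.52 to 26.2 ± 2.06 CPM without overlap and rose by 0.42 (SE 0.10, adjusted p = 0.00350, edgeR), a call that held in all 15 alternatives. It is named after its value was seen. ELAC2, which cuts the 3′ end, was at 172, 162 and 165 CPM against 258, 246 and 285 CPM and rose by 0.66 (SE 0.07, adjusted p = 4.37e-06, edgeR). FASTKD5, which acts on precursors that no tRNA separates, rose by 0.55 on the log2 scale (adjusted p = 2.11e-04, edgeR).

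LRPPRC, which with SLIRP protects the mRNAs, was at 321, 298 and 283 CPM in WT and at 228, 261 and 245 CPM in libraries labelled MUL1(−/−), without overlap. It fell by 0.30 on the log2 scale (SE 0.07, adjusted p = 0.00418, edgeR). SLIRP was at 110 ± 9.76 and 118 ± 4.58 CPM and did not pass (log2 fold change 0.11, adjusted p = 0.266, edgeR). Among the genes of stability and tails, ANGEL2 rose by 0.90 (adjusted p = 9.30e-06, edgeR) and the deadenylase PDE12 by 0.35 (adjusted p = 0.00325, edgeR) on the log2 scale. Of the 3 decay genes, SUPV3L1, PNPT1 and REXO2, 0 were called.

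Among 12 genes of rRNA and tRNA modification, 4 rose and 2 fell. The rRNA methyltransferases MRM3 and MRM1 rose by 0.91 (adjusted p = 8.35e-07, edgeR) and 0.74 (adjusted p = 6.49e-05, edgeR), and the tRNA modifiers CDK5RAP1 and GTPBP3 had log2 fold changes of -0.47 (adjusted p = 1.13e-04, edgeR) and -0.37 (adjusted p = 5.47e-04, edgeR). Among 12 genes of DNA maintenance, 3 rose, with the topoisomerase TOP3A at 0.84 (adjusted p = 2.61e-07, edgeR) and the polymerase subunit POLG2 at 0.40 (adjusted p = 0.00113, edgeR). The 3 that fell included the single-strand binding protein SSBP1 at -0.40 (adjusted p = 2.09e-04, edgeR) and TOP1MT at -0.45 (adjusted p = 0.00222, edgeR). Of 8 regulators of these genes, 4 fell and 0 rose, where 19.0% of all tested genes were called lower and 18.9% higher. The 4 that fell were PPRC1 (-0.35, adjusted p = 0.00337), GABPA (-0.32, adjusted p = 0.00603), ESRRA (-0.27, adjusted p = 0.0122) and PPARGC1A (-0.44, adjusted p = 0.0288), all with edgeR, the last 2 named after their values were seen. Of the 15 alternatives, the call held in 15 for PPRC1, 14 for GABPA, 12 for ESRRA and 10 for PPARGC1A. SSBP1, PRORP, FASTKD5, SLIRP and REXO2 overlap another gene on their strand, and their counts may include its reads. Because the counting did not use strand, reads of a gene on the opposite strand may also enter, which was not examined for these genes.

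Whole chromosomes differed between the genotypes, and many of these nuclear genes lie on such chromosomes. All 6 of the 60 that lie on chromosome 17, TEFM, ELAC2, MRM1, MRM3, POLG2 and TOP3A, rose, and on that chromosome 35.9% of all 1735 tested genes were called higher and 9.68% lower, with a median log2 fold change of 0.22. On chromosome 10, which holds TFAM, TWNK and PPRC1 among 5 of the 60, 9.84% were called higher and 41.3% lower, with a median of -0.29. Chromosome 20, with CDK5RAP1, which fell, and FASTKD5, which rose, had 7.03% higher and 46.3% lower (median -0.34). Chromosome 7, with SSBP1, which fell, and MRM2, which rose, had 9.11% higher and 35.4% lower (median -0.22). Chromosome 21, with GABPA, had 6.1% higher and 30.2% lower (median -0.24). The part of these chromosome-wide differences in the values above was not tested, and the chromosomes were chosen after their values were seen. POLRMT and GTPBP3, which fell, lie on chromosome 19, where 43.3% of the 1881 tested genes were called higher and 11.4% lower.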

How the data were processed

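RNA of 6 HEK293 libraries (3 WT, 3 MUL1(−/−)) was analysed. Each file holds, as deposited by the authors, unnormalized read counts for the exon bins of a flattened annotation. The submitters' processing notes name Trimmomatic 0.36 and STAR 2.5.2b, and the counting program is not given in the sources used here. Bins were summed to genes, although the plan had foreseen counts by gene. Bins of joined identifiers were given to genes through GENCODE 29 exons on their strand, and 376 such bins matched none. A read counts in each bin it touches, so sums exceed reads and are less precise than their size implies. edgeR 4.0.16 in R 4.3.3 was used with TMM factors (0.947 to 1.03), filterByExpr, the quasi-likelihood test on genotype and Benjamini-Hochberg adjustment over 26106 genes, and was tested on simulated data. Sums and ratios of sums were compared by exact two-sided permutation tests, 16 comparisons in all. The same test was also applied to shares of counts, by class and by member, and to the bins of shared bases. Those tests are not among the 16. With 3 libraries against 3, p cannot go below 0.1, also after adjustment. Replicates differed by 3.32 to 11.1 times the sampling noise (chi-square per degree of freedom), and none was merged. The 15 alternatives were DESeq2 1.42.0, RLE factors, library totals, factors from genes outside MT, no filter, at least 1 CPM in 3 libraries, the replicate block, the most counted bin, unshared bins and each library left out. Tables and figures used matplotlib 3.10.9, scipy 1.17.1, pandas 2.3.3 and numpy 2.4.6 under Python 3.11.15. Named are all coding genes and rRNAs, the 8 called tRNAs of smallest p and the 3 of highest CPM, and for the 60 nuclear genes 6 fixed ones and up to 2 called of smallest p per direction and role. For nuclear copies the 5 of highest CPM are named. The members and lists were chosen with earlier results of these data known.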

Additional observations from a re-analysis of the deposited data

How the results depend on the processing

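The number of mitochondrial genes called lower was 20 and became 18 with DESeq2, 19 with RLE factors, 16 with library totals, 18 without a filter and 19 with the most counted bin. It stayed at 20 with the other 4 settings that kept all libraries and ran from 15 to 25 when a library was left out. None was called higher under any setting. Of 555 single-gene alternatives, 517 kept the direction and side of the threshold, 25 lost a call and 7 gained one. The 6 that turned did so with a library left out. MT-RNR1 then ran from -0.27 to 0.052, turning without WT replicate 3. MT-CO2 ran from -0.055 to 0.085, turning without WT replicate 2 and MUL1(−/−) replicate 3. MT-CYB ran from -0.023 to 0.081, turning without WT replicate 1, WT replicate 2 and MUL1(−/−) replicate 3. Of 152 alternatives for sums and ratios, 148 kept both. With a library left out, complex III ran from -0.021 to 0.080, and the ratio of rRNA to coding ran from -0.031 to 0.14. The nuclear genes called lower, 14 of 60, were 9 without WT replicate 1 and ran from 9 to 14 with a library left out, and those called higher, 15, ran from 12 to 16. With library totals 20 were called higher and 10 lower, and the other settings gave 13 to 17 higher and 12 to 14 lower. The nuclear copies called lower were 2, but 1 with DESeq2, without a filter, at 1 CPM or more, with the most counted bin and with unshared bins, 0 with library totals, and from 0 to 2 with a library left out. The cause of these changes was not tested. Same-numbered libraries did not deviate together (correlations of -0.15, -0.01 and 0.02), so the numbers do not pair the samples. With the replicate number as a block, 20 mitochondrial genes were called lower and 1 nuclear copy. Library totals moved the median of all genes from -0.01 to 0.06. Mitochondrial genes had at least 218 counts in each library, and MT-TD, the gene with that lowest count, had an SE of 0.22 against a median of 0.08 over the 37 and was not called at -0.40 (named after its value was seen). The 3 libraries a genotype limit every test of a sum.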
